A study of Mus musculus with 18 samples.

Results

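The nuclear-encoded oxidative phosphorylation genes described here are the 120 rows of the deposited table whose KEGG pathway annotation names oxidative phosphorylation and whose symbol does not begin with mt-, out of 35405 genes in the table. The pathway has 133 rows in all, and the other 13 are encoded by mitochondrial DNA. By symbol the 120 fall into 42 genes of complex I, 4 of complex II, 9 of complex III, 20 of complex IV, 15 of complex V, 2 cytochromes c, 22 genes of the vacuolar proton pump (V-ATPase), 3 proton-potassium pump genes (H,K-ATPase) and 3 pyrophosphatases. The group of complex IV includes Cox10, Cox11, Cox15 and Cox17, which serve its assembly and are not subunits, and its medians and counts below include them. The choice of the 120 rests on annotation and names and on no measured value.

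Polyadenylated RNA of mouse colon was sequenced in 18 libraries, 6 labelled IBC (isobavachalcone, a plant chalcone), 6 labelled TNBS (trinitrobenzene sulfonic acid, a hapten that brings on colitis in rodents) and 6 labelled vector, which the table names as the controls. The series title is about isobavachalcone in a TNBS model of colitis. Strain, sex, age, dose and time are not stated, and neither is what the vector was or whether mice of the IBC group were given TNBS. No label ties a library to an animal of its own, so each p-value below measures only the spread between these libraries, which may be technical.

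Each library held between 55669263 and 78874868 counts. The libraries held epithelial RNA, since 14 of 14 epithelial markers averaged above 1 CPM (counts scaled to the effective total of the library). The sum of these markers ran from 15622 to 42492 CPM over the 18 libraries. General epithelial genes such as Epcam and Krt8 are among them, so they do not by themselves identify colon. Hoxb13, a homeobox gene of the posterior body axis that is expressed in distal colon, was at most 1.44 CPM in 6 libraries (IBC 2 and IBC 5, TNBS 2 and TNBS 3, vector 3 and vector 4) and at least 123 CPM in the other 12. Some libraries stood apart in other ways. The mitochondrially encoded genes held 17.98% of the counts in vector 3, and pancreatic enzyme markers summed to 15644 CPM in 1 vector library, against at most 307 CPM in IBC libraries and 378 CPM in TNBS libraries. TNBS 5 had the highest level of short transcripts, as given below.

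Complexes I and II pass electrons from NADH and succinate to ubiquinone, complex III passes them on to cytochrome c, and complex IV passes them to oxygen. Complexes I, III and IV move protons out of the mitochondrial matrix as they do so, and complex V, the ATP synthase, makes ATP from their return. Nuclear and mitochondrial genomes both encode subunits of complexes I, III, IV and V, while complex II is wholly nuclear. Colonocytes draw much of their energy from the oxidation of butyrate in mitochondria. The annotation also takes in proton pumps that use ATP outside the respiratory chain, and these are given apart.

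The proximal promoters of these genes are known for sites of a few factors, among them NRF1, the ETS factor GABP, YY1 and the oestrogen-related receptors (ERR). RefSeq promoter sequences of build GRCm38.p6, from 250 bases before to 50 bases after the annotated start, were at hand for 93 of the 120 genes, 13 of them matched through a synonym, with 103 promoters in all. The 6 shown here belong to genes the results below turn on, namely Cox6a1 (chr5:115348909-115349208, minus strand), Cycs (chr6:50566520-50566819, minus strand), Ndufa6 (chr15:82354242-82354541, minus strand), Atp6v0e (chr17:26676146-26676445, plus strand), Cox8b (chr7:140900397-140900696, minus strand) and Ndufa4 (chr6:11907401-11907700, minus strand). Each is written in the direction of transcription, and capitals mark matches to the searched motifs on either strand.
Cox6a1: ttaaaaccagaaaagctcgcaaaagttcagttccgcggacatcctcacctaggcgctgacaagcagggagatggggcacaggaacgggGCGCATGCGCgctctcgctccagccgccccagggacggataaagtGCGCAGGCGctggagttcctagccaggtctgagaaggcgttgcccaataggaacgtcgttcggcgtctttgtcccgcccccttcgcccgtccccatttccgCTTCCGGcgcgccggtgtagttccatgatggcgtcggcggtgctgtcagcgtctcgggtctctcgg
Cycs: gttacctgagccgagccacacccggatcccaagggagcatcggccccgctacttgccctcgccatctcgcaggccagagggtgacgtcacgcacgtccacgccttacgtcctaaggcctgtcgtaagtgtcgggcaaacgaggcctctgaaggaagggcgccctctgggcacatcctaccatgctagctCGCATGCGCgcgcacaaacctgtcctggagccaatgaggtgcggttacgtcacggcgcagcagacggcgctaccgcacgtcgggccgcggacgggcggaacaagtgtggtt
Ndufa6: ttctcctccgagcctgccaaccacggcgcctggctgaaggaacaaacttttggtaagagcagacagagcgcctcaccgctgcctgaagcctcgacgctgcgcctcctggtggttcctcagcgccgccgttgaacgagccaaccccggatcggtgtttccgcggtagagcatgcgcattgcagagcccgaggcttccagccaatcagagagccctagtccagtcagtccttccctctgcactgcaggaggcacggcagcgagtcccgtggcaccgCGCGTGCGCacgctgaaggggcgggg
Atp6v0e: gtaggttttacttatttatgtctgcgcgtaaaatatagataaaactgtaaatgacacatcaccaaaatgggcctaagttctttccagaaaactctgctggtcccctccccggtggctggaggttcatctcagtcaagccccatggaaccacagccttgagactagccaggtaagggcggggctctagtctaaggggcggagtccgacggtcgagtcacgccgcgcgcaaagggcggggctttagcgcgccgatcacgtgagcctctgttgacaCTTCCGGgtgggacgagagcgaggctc
Cox8b: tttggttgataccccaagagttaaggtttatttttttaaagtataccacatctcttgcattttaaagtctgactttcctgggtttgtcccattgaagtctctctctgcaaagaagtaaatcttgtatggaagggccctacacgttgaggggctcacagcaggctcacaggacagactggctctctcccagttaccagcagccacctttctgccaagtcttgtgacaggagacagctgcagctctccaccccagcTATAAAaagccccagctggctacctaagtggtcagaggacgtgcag
Ndufa4: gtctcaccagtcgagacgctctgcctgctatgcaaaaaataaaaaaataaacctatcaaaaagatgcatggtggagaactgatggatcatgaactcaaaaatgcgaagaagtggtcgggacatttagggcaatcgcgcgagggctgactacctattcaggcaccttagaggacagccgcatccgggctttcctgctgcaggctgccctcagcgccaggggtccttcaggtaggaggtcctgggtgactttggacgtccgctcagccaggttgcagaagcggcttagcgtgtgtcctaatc

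Cox6a1 held 3 matches to the NRF1 motif, beginning 162, 161 and 117 bases before the start, the first 2 being a single palindromic stretch read on both strands, and 1 match to the ETS motif beginning 16 bases before it. Cycs held 1 NRF1 match 61 bases before the start, Ndufa6 1 NRF1 match 24 bases after it, Atp6v0e 1 ETS match 23 bases after it, and Cox8b 1 TATA match 4 bases after it. No searched motif was found in the 300 bases of Ndufa4.

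Motifs were searched as exact letters on both strands. The NRF1 motif GCGCANGCG stood in 25 of the 103 promoters (24.3%), against 6.25% of all 32851 RefSeq mouse promoters of the same length. The ETS motif CCGGAAG stood in 22 (21.4%, against 8.86%), the YY1 motif AAGATGGCG in 9 (8.74%, against 1.40%), the ERR motif TCAAGGTCA in 2 (1.94%, against 0.423%) and TATAAA in 9 (8.74%, against 13.6%). At least 1 of the NRF1, ETS and YY1 motifs stood in 44.7%, against 14.8% of all promoters. The promoters of these genes were also richer in G and C (median 58.3%, against 52.7%), and among the 11074 mouse promoters at or above that 58.3% the shares were 13.9% for NRF1, 16.2% for ETS, 2.56% for YY1, 0.135% for ERR, 3.52% for TATAAA and 28.8% for any of the NRF1, ETS and YY1 motifs. The share of TATAAA in the 103 promoters thus lay below that of all promoters and above that of the promoters rich in G and C. Those rich promoters had a median of 65.7% G and C, so they are not matched to the 103. By complex, any of the 3 motifs stood in 3 of 3 promoters of complex II, 3 of 5 of complex III, 10 of 17 of complex V, 17 of 37 of complex I, 5 of 15 of complex IV and 6 of 21 of the V-ATPase. A match describes the letters in this window and is not a measured binding site.

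The levels of the members spread over several orders of magnitude. Compared per transcript length in FPKM (fragments scaled to transcript length and to the fragments of the library), 33 of the 120 averaged above 100 FPKM over the 18 libraries and 9 averaged below 1 FPKM. Complex IV held 28.3% of the summed mean FPKM of the 120, complex I 22.8%, complex V 22.1%, complex III 14.5%, the V-ATPase 5.20% and complex II 5.03%. The median gene had 161 FPKM in complex III, 106 in complex V, 93.9 in complex II, 93.7 in complex IV, 46.8 in complex I and 16.0 in the V-ATPase.

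The highest levels belonged to complexes IV and V. Cox6a1, a subunit of complex IV, averaged 647 ± 157 FPKM (SD over 18 libraries, as for the other levels of this paragraph), and Cox8a, its smallest subunit, 560 ± 177 FPKM. Atp5f1a and Atp5f1b, the alpha and beta subunits that form the catalytic head of the ATP synthase, averaged 486 ± 55.4 and 427 ± 57.9 FPKM. Cox4i1, the common form of subunit 4 of complex IV, averaged 403 ± 135 FPKM. Relative to its mean, the SD was smaller for Atp5f1a and Atp5f1b than for Cox4i1 and Cox8a. In complex I the catalytic core was unequal in level, with Ndufv1, which binds NADH, at 67.5 ± 10.1 FPKM and Ndufs1, an iron-sulfur subunit, at 21.7 ± 3.64 FPKM. In complex II Sdhd, a membrane anchor, averaged 255 ± 56.9 FPKM, and the catalytic subunits Sdha and Sdhb averaged 90.5 ± 13.2 and 97.4 ± 19.9 FPKM. In complex III Uqcr10 averaged 266 ± 99.0 FPKM, the core subunit Uqcrc1 105 ± 19.2 FPKM and cytochrome c1 (Cyc1) 161 ± 30.3 FPKM. Cycs, the cytochrome c of body cells, averaged 82.2 ± 30.2 FPKM, while Cyct, its testis form, averaged 0.0844 FPKM.

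A filter on low counts kept 115 members for testing, among 20855 genes. The 5 left out were Cyct, Atp4a and Atp4b, the subunits of the gastric proton pump, and Atp6v1c2 and Atp6v1e2, V-ATPase forms that averaged 0.0202 and 0.00148 FPKM. Levels of a few members cannot be told apart from those of near-identical copies. Ndufb4c and Ndufs6b are typed as processed pseudogenes in the table and Ndufb4b as a long noncoding RNA. The counts of Ndufb4b were 0.200 to 0.280 times those of Ndufb4 over the 18 libraries and those of Ndufb4c 0.260 to 0.352 times.

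**Figure D1:**
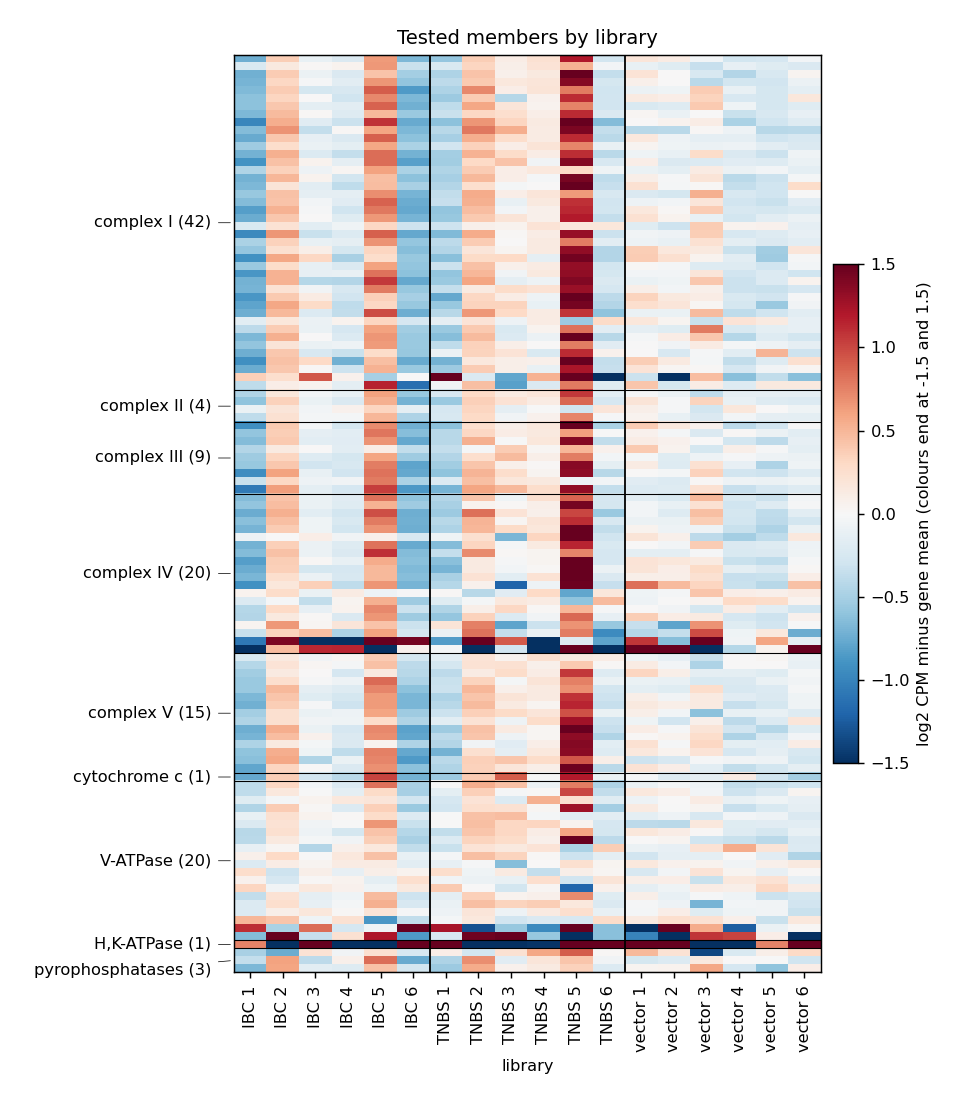
Level of each of the 115 tested members (rows, grouped by complex with the number of genes, highest mean FPKM first) in each library (columns), as log2 CPM minus the gene's mean over the 18 libraries, with colours ending at -1.5 and 1.5. TNBS 5 and IBC 5 are high and IBC 1 and IBC 6 low across complexes I to V, while the vector columns stay near 0.

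The members moved together from library to library more than with the groups. For each library the median over the 115 members of the log2 CPM, centred on the gene's mean, was taken. In IBC libraries it was -0.59, 0.36, -0.06, -0.19, 0.60 and -0.56 for IBC 1 to IBC 6, in TNBS libraries -0.40, 0.36, 0.09, 0.10, 1.07 and -0.25 for TNBS 1 to TNBS 6, and in vector libraries 0.02, -0.04, 0.11, -0.22, -0.21 and -0.11 for vector 1 to vector 6. The vector libraries lay within the range of both other groups. Of the 115 members, 75 were highest in TNBS 5 and 21 in IBC 5, and 81 were lowest in IBC 1 or IBC 6. With an offset for transcript length (a smooth of centred log2 CPM on length over the other genes, added after the data were seen), the median was 0.42 in TNBS 5 and 0.39 in IBC 5, and 55 members were highest in TNBS 5 and 28 in IBC 5. The median SD of a member's log2 CPM within a group was 0.51 in IBC, 0.56 in TNBS and 0.21 in vector, and over all tested genes it was 0.43 in IBC, 0.55 in TNBS and 0.37 in vector. The first principal component of the members held 50.7% of their variance, against 25.8% for all tested genes. Values were not scaled by gene, so members of large spread weigh most. Atp12a, a proton-potassium pump gene, ran from -5.22 in IBC 5 to 5.13 in vector 1. The share therefore does not tell how many members moved together.

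As a share of all counts, the members took 2.10 ± 0.424% in IBC libraries, 2.24 ± 0.451% in TNBS libraries and 1.94 ± 0.181% in vector libraries (SD, n = 6 each). The range was 1.62% to 2.74% in IBC, 1.75% to 3.00% in TNBS and 1.71% to 2.24% in vector, so the groups overlapped. The mitochondrial complexes shared the library pattern and the V-ATPase showed less of it. In TNBS 5 the median centred log2 CPM was 1.33 for complex III, 1.19 for complex I, 1.08 for complex V, 1.05 for complex IV and 0.80 for complex II, and it was 0.20 for the V-ATPase. In IBC 1 the same medians were -0.60, -0.68, -0.56, -0.65 and -0.41, and -0.20 for the V-ATPase. TNBS 5 was the highest library for 33 of 42 genes of complex I and for 7 of 20 of the V-ATPase.

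Transcript length moved with this pattern, and the median of the members under an offset for length stands beside each comparison below. Medians of the complexes and of other gene lists are given without that offset. Ranked by length relative to other genes, as the ratio of count to FPKM gives it, and with all tested genes split into 4 length classes of equal size, 55 of the 115 members lay in the shortest class, 33 in the second, 18 in the third and 9 in the longest. The shortest class held 27 of 42 genes of complex I, 1 of 4 of complex II and 5 of 9 of complex III. It held 15 of 20 of complex IV, 4 of 15 of complex V and 3 of 20 of the V-ATPase. Among other well expressed genes, without ribosomal protein genes, the shortest class had a median of 0.89 in TNBS 5, 0.39 in IBC 5, -0.37 in IBC 1 and -0.35 in IBC 6, and the longest class had a median of -0.67 in TNBS 5. Within the members, the median in TNBS 5 was 1.33 for the 55 shortest, 0.76 and 0.65 for the middle classes and 0.15 for the 9 longest. The members of the shortest class had a median SD of 0.51 over the 18 libraries and those of the longest 0.34. Sdha, Atp5f1a, Atp6v1a, Tcirg1 and Atp6v1c1 had some of the smallest SDs (0.16 to 0.19).

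**Figure D2:**
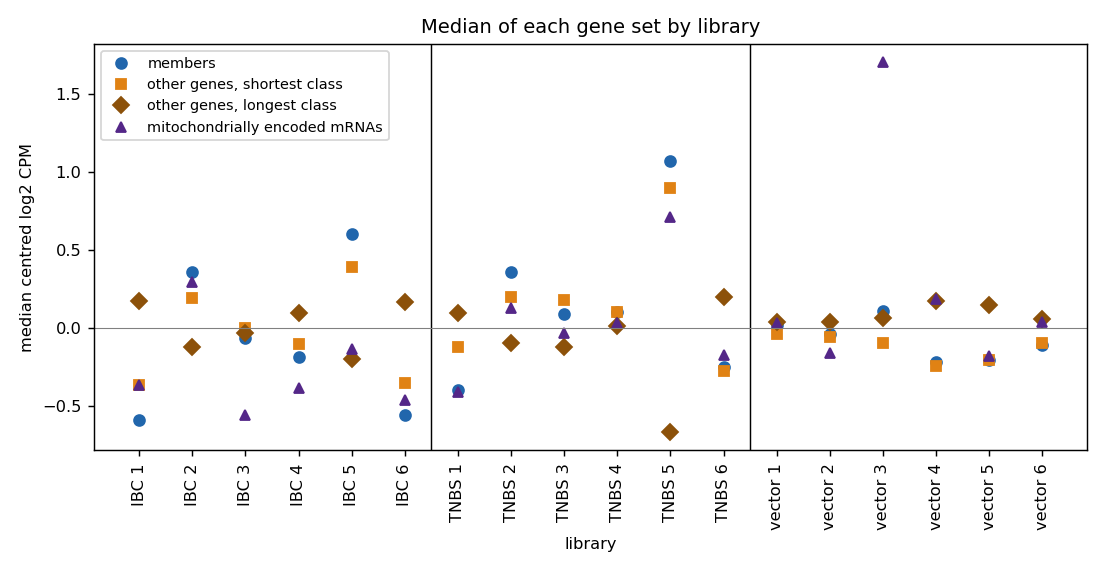
Median centred log2 CPM (vertical axis) of the 115 members, of other genes in the shortest and longest length classes, and of the 13 mitochondrially encoded mRNAs, in each library (horizontal axis). The members follow the other short genes, both highest in TNBS 5 (1.07 and 0.89), and the mitochondrially encoded mRNAs are highest in vector 3 (1.70).

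The comparison of TNBS with vector addresses what the colitis model does to these genes. No member passed edgeR's quasi-likelihood test at an adjusted p under 0.05, at which 4 of 20855 genes (0.0192%) were called, 1 higher and 3 lower. The smallest adjusted p of a member was 0.215. At an unadjusted p under 0.05 there were 5 members of 115, all higher in TNBS, where 3703 genes (17.8%) lay past that level in either direction. The fitted log2 difference was above 0 for 102 of the 115 members, where 48.9% of all genes were above 0, and its median was 0.30, against -0.01 over all genes. The TNBS and vector libraries were fully separated for 0 members and for 1.17% of all genes. Without TNBS 5 the median was 0.09, and with the length offset it was 0.04. DESeq2 and limma also called 0 members, and their calls over all genes are not given here.

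By role the differences of TNBS minus vector were alike in the mitochondrial complexes. The median was 0.35 in complex I (41 of 42 genes above 0), 0.22 in complex II (3 of 4), 0.33 in complex III (9 of 9), 0.24 in complex IV (15 of 20) and 0.31 in complex V (15 of 15). It was 0.23 in the V-ATPase (15 of 20), and Cycs alone gave 0.59. Without TNBS 5 the median of complex IV was -0.03, and those of complexes I, III and V were 0.10, 0.13 and 0.09.

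The members with the smallest p came from complexes I and IV and from the V-ATPase. Ndufa4, long listed with complex I and now known as a subunit of complex IV (ENSMUSG00000029632, chromosome 6, 11900291 to 11907482 in the table's coordinates), had 96.9, 224, 189, 140, 343 and 101 CPM in the 6 TNBS libraries and 96.3, 97.1, 130, 123, 96.9 and 97.6 CPM in the 6 vector libraries. All 6 vector libraries lay at or below 130 CPM, and 4 TNBS libraries lay above that. Its log2 difference was 0.77 ± 0.30 (SE), with an unadjusted p of 0.0186 and an adjusted p of 0.215 (edgeR, n = 6 each), and without TNBS 5 it was 0.51.

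Ndufa4l2, a paralogue of Ndufa4 that is induced by low oxygen, had 10.6, 1.65, 1.10, 2.78, 5.96 and 0.605 CPM in TNBS and 1.53, 0.613, 2.65, 1.23, 1.48 and 1.23 CPM in vector. TNBS 1, TNBS 4 and TNBS 5 lay above every vector library and TNBS 6 below. Its log2 difference was 1.38 ± 0.54 (adjusted p = 0.220, edgeR), and it was -0.49 in a fit of the 6 libraries low in Hoxb13 alone.

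Atp6v0e, a small membrane subunit of the V-ATPase (chromosome 17, 26882205 to 26918621), had 87.5, 127, 121, 106, 299.7 and 76.7 CPM in TNBS, against 101, 103, 81.7, 79.9, 76.2 and 86.6 CPM in vector. TNBS 5 stood far above the rest, and the other values overlapped. Its log2 difference was 0.63 ± 0.26 (adjusted p = 0.238, edgeR), and 0.25 without TNBS 5. Cox7a2, the common form of subunit 7a of complex IV, had 588 CPM in TNBS 5 and 139 to 270 CPM in the other TNBS libraries, against 139 to 199 CPM in vector, with a log2 difference of 0.63 ± 0.31 (adjusted p = 0.297, edgeR), and 0.24 without TNBS 5.

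The V-ATPase subunits Atp6v1h, Atp6v0c, which forms the proton-carrying ring, and Atp6v1g1 differed by 0.36 ± 0.16, 0.34 ± 0.17 and 0.45 ± 0.22 (adjusted p 0.260, 0.286 and 0.290, edgeR). Other subunits were close to 0, among them Sdha (-0.01 ± 0.14), Ndufs1 (-0.03 ± 0.15) and Atp6v1a (-0.03 ± 0.12), the catalytic subunit of the V-ATPase.

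**Figure D3:**
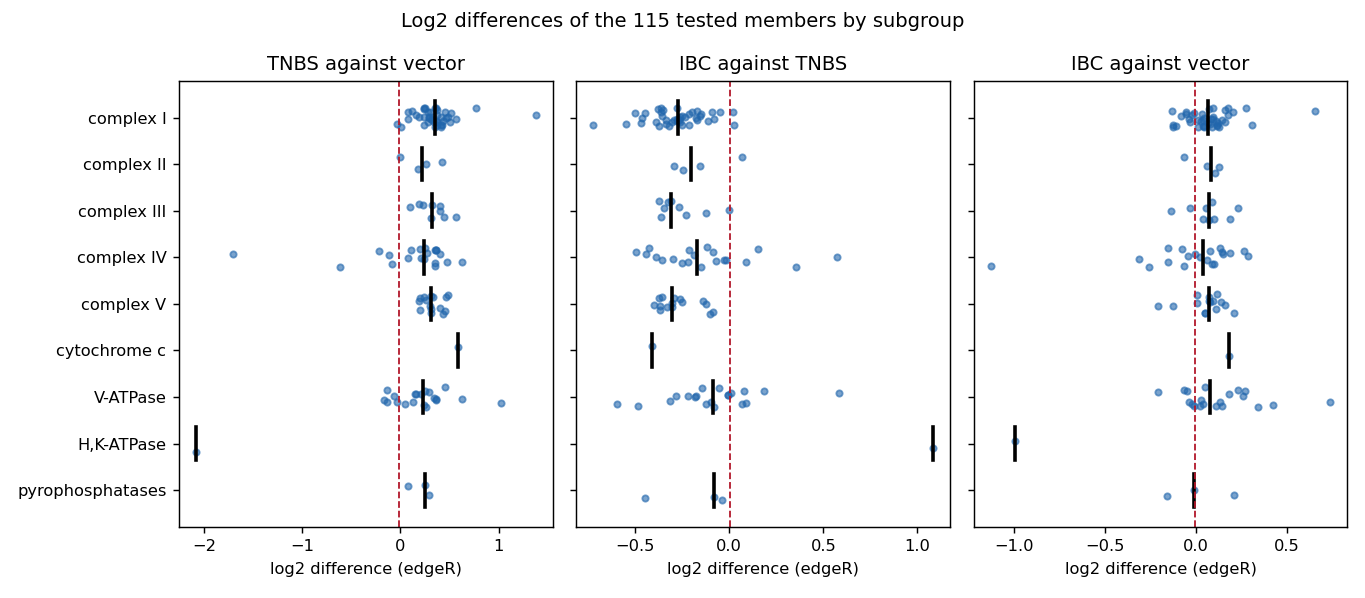
Log2 difference from edgeR (horizontal axis) of each tested member (point) by subgroup (rows) in the 3 comparisons, with the subgroup median as a black bar and the median of all 20855 genes as a dashed red line. Medians of complexes I to V lie at 0.22 to 0.35 for TNBS against vector, -0.31 to -0.17 for IBC against TNBS and 0.04 to 0.08 for IBC against vector.

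The comparison of IBC with TNBS addresses what isobavachalcone does in the model, as far as the labels allow. It shares the TNBS libraries with the comparison above, so the 2 are not independent. No member and no gene at all passed the adjusted test (0% of 20855). An unadjusted p under 0.05 was seen for 0 members and for 820 genes (3.93%). By DESeq2 and limma 0 members were called, with the calls over all genes not given here. The smallest adjusted p of a member by edgeR was 0.925. The log2 difference of IBC minus TNBS was above 0 for 15 of 115 members, where 50.3% of all genes were above 0, and its median was -0.25, against 0.00 over all genes. The IBC and TNBS libraries were fully separated for 0 members and for 0.149% of all genes. With the length offset the median was -0.09. Without TNBS 5 it was -0.01, without IBC 1 or IBC 6 it was -0.14, and without IBC 5 it was -0.42.

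The medians of IBC minus TNBS were -0.27 in complex I, -0.20 in complex II, -0.31 in complex III, -0.17 in complex IV, -0.30 in complex V and -0.09 in the V-ATPase. Without TNBS 5 they lay near 0, at -0.0015, -0.032, -0.024, 0.063, -0.041 and -0.044 in that order, so that of complex IV changed sign. In complex V, 15 of 15 differences were below 0. The smallest unadjusted p was that of Ndufa12, an accessory subunit of complex I, which had 15.3, 33.5, 21.4, 20.2, 30.7 and 17.0 CPM in IBC and 23.9, 32.0, 29.4, 21.7, 55.2 and 26.4 CPM in TNBS. IBC 1, 3, 4 and 6 lay below every TNBS library, and IBC 2 and IBC 5 lay above all but 1 or 2 of them. Its log2 difference was -0.45 ± 0.24 (unadjusted p = 0.0748, adjusted p = 0.925, edgeR), and -0.21 without TNBS 5.

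Ndufa6, an accessory subunit of complex I, had 379 CPM in TNBS 5 and 82.8 to 134 CPM in the other TNBS libraries, and IBC libraries had 70.7 to 155 CPM. Its log2 difference of IBC minus TNBS was -0.55 ± 0.32, and -0.023 without TNBS 5. Atp5pf, coupling factor 6 of the ATP synthase, had 414 CPM in TNBS 5, 117 to 171 CPM in the other TNBS libraries and 116 to 176 CPM in IBC, with a difference of -0.40 ± 0.25, and -0.0046 without TNBS 5. For Ndufb11, Cox7a2, Atp6v0e, Ppa1 and Atp5f1c, the gamma subunit of the ATP synthase, the differences were -0.47 ± 0.29, -0.50 ± 0.31, -0.48 ± 0.26, -0.45 ± 0.27 and -0.37 ± 0.21 (adjusted p 0.925 for each of these genes, edgeR). Without TNBS 5 the same differences were -0.055, -0.088, -0.083, -0.28 and -0.12. Uqcrc1 (0.00 ± 0.18) and Tcirg1 (-0.01 ± 0.12) were close to 0.

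The comparison of IBC with vector asks how the IBC colon stands against the controls. No gene passed the adjusted test (0%). An unadjusted p under 0.05 was seen for 1 member and for 1778 genes (8.53%). By DESeq2 and limma 0 members were called, with the calls over all genes not given here. The log2 difference by edgeR was above 0 for 81 of 115 members, where 49.1% of all genes were above 0. Its median was 0.07, against -0.01 over all genes. The IBC and vector libraries were fully separated for 0 members and for 1.08% of all genes. Without IBC 5 the median was -0.09, without IBC 2 it was -0.02, and without IBC 1 or IBC 6 it was 0.16, so its sign depended on single libraries. Without vector 3 it was 0.11, without vector 4 or vector 5 it was 0.04, and with the length offset -0.03. The medians of complexes I to V were 0.07, 0.08, 0.07, 0.04 and 0.07, and that of the V-ATPase was 0.08.

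The member at an unadjusted p under 0.05 was Atp6v1b2, an ATP-binding subunit of the V-ATPase found in most tissues (chromosome 8, 69541298 to 69566363). It had 122, 142, 115, 130, 157 and 108 CPM in IBC, against 94.98, 105, 106, 116, 103 and 84.9 CPM in vector. Of the IBC libraries 4 lay above all vector libraries, and IBC 3 and IBC 6 lay among the higher vector values. Its log2 difference was 0.34 ± 0.14 (unadjusted p = 0.0224, adjusted p = 0.489, edgeR), and in TNBS minus vector it was 0.27 ± 0.14. Atp6v0c differed by 0.26 ± 0.17, Atp6v1h by 0.23 ± 0.16, Atp6ap1, an accessory subunit, by 0.18 ± 0.13, Atp6v1c1 by 0.13 ± 0.10, Ndufa4l2 by 0.65 ± 0.54 and Atp6v0a2 by -0.21 ± 0.17 (adjusted p 0.723 to 0.814, edgeR).

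Isoform pairs of complex IV differ in the tissues that use them, and the colon held mainly the common form of each. The muscle forms Cox6a2, Cox7a1 and Cox8b made up at most 0.103%, 3.32% to 14.2% and at most 0.555% of the FPKM of their pair in any library. Cox4i2, a form known from lung, made up 0.279% to 0.661% of the pair with Cox4i1, Cox6b2, a testis form, 0.413% to 1.17%, and Ndufa4l2 0.726% to 12.1% of the pair with Ndufa4 (median 1.89%). Only Cox7a1 reached a median share above 2%, at 8.87%.

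Cox7a1 had 5.58, 11.8, 13.4, 8.04, 16.7 and 6.46 CPM in IBC, 7.80, 10.9, 4.55, 9.94, 29.2 and 8.27 CPM in TNBS, and 18.7, 14.5, 13.1, 8.34, 7.85 and 14.3 CPM in vector. The groups overlapped, and its log2 difference was -0.12 ± 0.38 for TNBS minus vector and -0.19 ± 0.38 for IBC minus TNBS. Summed striated muscle markers (6 of 8 in the table, 3 above 1 CPM, none at 0 in all libraries) ran from 7.43 to 37.8 CPM in IBC, 6.15 to 28.5 CPM in TNBS and 10.4 to 61.7 CPM in vector. Summed smooth muscle markers (8 of 8 above 1 CPM) ran from 2544 to 5214 CPM in IBC, 1997 to 4745 CPM in TNBS and 3067 to 8851 CPM in vector. Cox8b reached at most 1.42 CPM and brown fat markers, another place of Cox8b, summed to at most 8.69 CPM. The part of these cell types in the isoform levels was not tested.

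**Figure D4:**
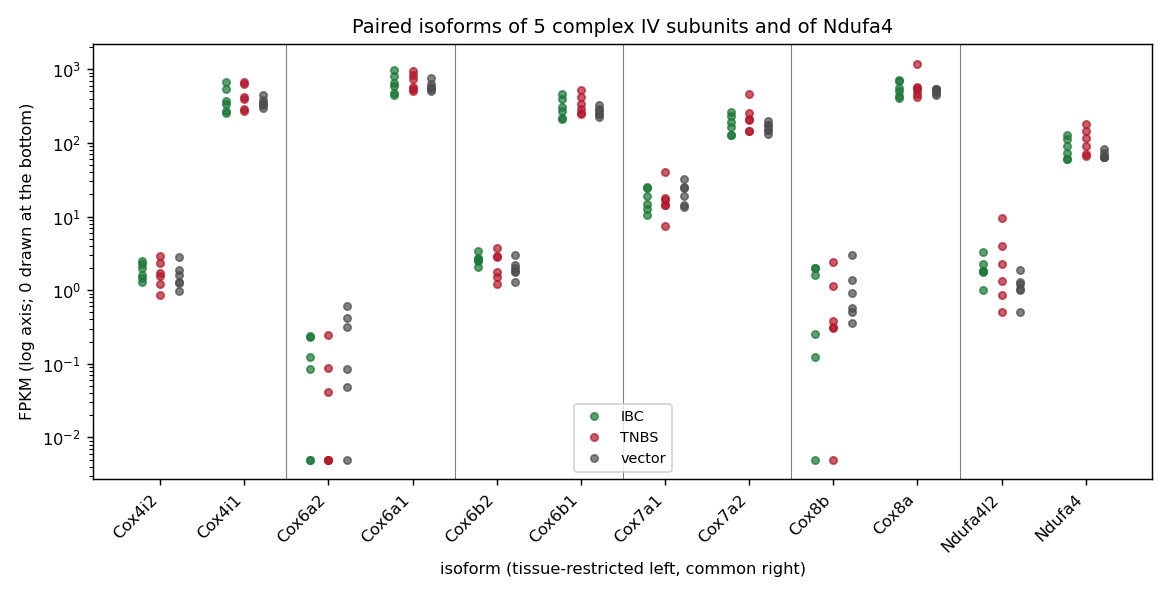
FPKM (vertical log axis, with 0 drawn at the bottom) of both forms of 5 complex IV subunits and of Ndufa4 in each library (points, coloured by group, IBC left, TNBS in the middle, vector right). The common form of each pair lies above the restricted form in every library, by least for Cox7a1 and Cox7a2 and for Ndufa4l2 and Ndufa4.

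Between libraries low and high in Hoxb13, 1 of the 115 members (0.870%) was fully separated in each direction, where 1.46% of all genes were higher and 1.42% lower in every low library. The values describe the 6 libraries low and the 12 high in Hoxb13, which hold 2 and 4 libraries of every group, and carry no test. Atp12a, the alpha subunit of the non-gastric proton-potassium pump, which takes up potassium in distal colon (chromosome 14, 56602525 to 56626007), had 0.577 to 2.70 CPM in the 6 low libraries and 4.97 to 795 CPM in the 12 high. The sets did not overlap, as for 1.42% of all genes in that direction. By group it had 37.9, 0.663, 344, 4.97, 0.577 and 367 CPM in IBC, 111, 1.34, 1.55, 8.14, 110 and 124 CPM in TNBS, and 795, 429, 2.70, 1.05, 37.9 and 240 CPM in vector. Its log2 difference of TNBS minus vector was -2.08 ± 1.57 (adjusted p = 0.478, edgeR), and within the 12 high libraries alone values of 8.14 to 124 CPM in TNBS stood beside 37.9 to 795 CPM in vector. The gastric pump was not detected beyond traces, Atp4a reaching at most 0.277 CPM.

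Atp6v0a4, a form of the V-ATPase membrane subunit known from kidney intercalated cells, was higher where Atp12a was lower. It had 1.04 to 3.79 CPM in the 6 libraries low in Hoxb13 and 0.110 to 0.589 CPM in the 12 high, and was the only member above in all 6, where 1.46% of all genes were. Its level was low, with 68 to 254 counts in the low libraries and 7 to 41 counts in the high.

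The other members differed less between the sets. The median of the low libraries lay above that of the high ones for 105 of 115 members, where 49.4% of all genes lay so, and the median difference was 0.39 on the log2 scale, against -0.01 over all genes. With the length offset it was 0.28, with 103 members above 0. Short transcripts of other genes had a median centred log2 CPM of 0.18 over the low libraries and -0.10 over the high. Markers of other cells also differed between the sets, with medians of 2.30 in the low and -0.89 in the high for adipocytes, 0.62 and -0.20 for neurons and glia, 0.40 and -0.25 for smooth muscle, and -0.52 and 0.30 for macrophages, and their part in the members' values was not tested. Without the offset, the median difference of low minus high was 0.45 in complex I, 0.24 in complex II and 0.36 in complex III. It was 0.37 in complex IV, 0.39 in complex V and 0.29 in the V-ATPase. Ndufa4 (0.98), Uqcrq (0.76), a small subunit of complex III, and Cox4i1 (0.72) were among the largest, and Cox8b gave 2.32 at its low level. In the other direction stood Cox6a2 (-1.61) and Atp6v0d2 (-0.95), both with low levels, and Ppa1 (-0.41), the cytosolic pyrophosphatase. Ndufa4 had 123 to 224 CPM in the low libraries and 80.6 to 343 CPM in the high, where 1 library, TNBS 5, held the 343.

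**Figure D5:**
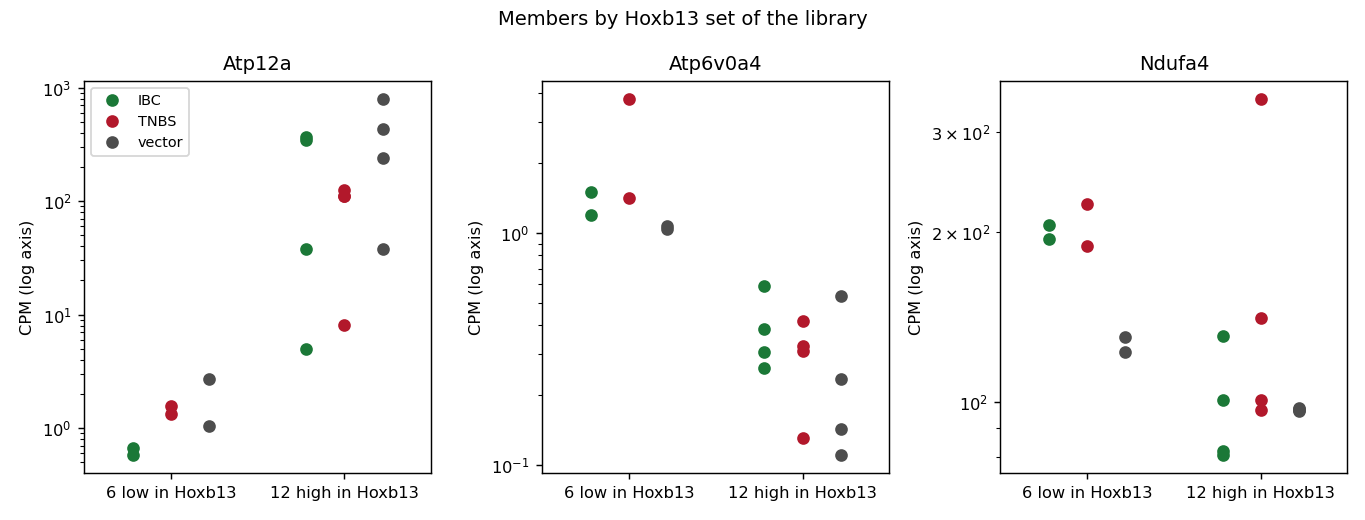
CPM (vertical log axis) of Atp12a, Atp6v0a4 and Ndufa4 in the 6 libraries low and the 12 high in Hoxb13, coloured by group. Atp12a lies at 0.577 to 2.70 CPM in the low libraries and at 4.97 to 795 CPM in the high, Atp6v0a4 lies higher in the low ones, and Ndufa4 overlaps.

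The medians of the IBC comparisons differed in sign between the sets, but the test below called 0 members different. The median difference of TNBS minus vector was 0.28 within the 6 low libraries and 0.31 within the 12 high. That of IBC minus TNBS was 0.21 within the low and -0.58 within the high, and that of IBC minus vector 0.51 and -0.24. The low set has 2 libraries a group, and the high set 4. The high set holds TNBS 5, IBC 1 and IBC 6, with member medians of 1.07, -0.59 and -0.56. The low set holds IBC 5, with 0.60. The test of the difference between the sets (an interaction term in edgeR) called 0 members in each comparison, with smallest adjusted p of 1.00 for TNBS against vector, 0.895 for IBC against TNBS and, with vector in place of TNBS, 0.293. Over all genes it called 0 (0%), 2 (0.00959%) and 1 (0.0048%), and at an unadjusted p under 0.05 there were 2, 11 and 13 members, where 4.56%, 4.48% and 12% of all genes lay past that level.

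The 13 mRNAs that mitochondrial DNA encodes for the same complexes went with the members in some libraries and not in others. In TNBS 5 their median centred log2 CPM was 0.71, beside 1.07 for the members. In IBC 1 it was -0.37, beside -0.59, and in IBC 6 -0.46, beside -0.56. In vector 3, by contrast, the median of the 13 mRNAs was 1.70, beside 0.11 for the members, and in IBC 5 it was -0.14, beside 0.60. In TNBS minus vector 2 of 13 were above 0, with a median of -0.31, in IBC minus TNBS 2 of 13 (median -0.39), and in IBC minus vector 0 of 13 (median -0.69). None passed the adjusted test. Without vector 3 the median of TNBS minus vector was 0.26 and that of IBC minus vector was -0.21.

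Lists of genes that serve the respiratory chain differed from each other. In TNBS minus vector the median of the members was 0.30, and assembly factors had 0.27, with 35 of 37 above 0. Mitochondrial ribosomal proteins, which translate the mitochondrially encoded subunits, had a median of 0.44, with 83 of 83 above 0. Of these 83, 25 were higher at an unadjusted p under 0.05 (edgeR), as were 5 of 115 members and 2177 of all 20855 genes. Of all genes 48.9% were above 0. In IBC minus TNBS the medians of assembly factors and mitochondrial ribosomal proteins were -0.25 and -0.30, and in IBC minus vector 0.05 and 0.14. Without TNBS 5 the medians of TNBS minus vector were 0.14 and 0.24. Values of these lists under the length offset, which lowered the median of the members in this comparison, are not given here. Enzymes of the citrate cycle, which feed the chain, had a median of 0.06 in TNBS minus vector. A list of mitochondrial carriers, which also holds Vdac genes and the member Cycs, had 0.20. Regulators of mitochondrial biogenesis such as Ppargc1a and Tfam had 0.04. Lysosomal genes, which serve the compartment that the V-ATPase acidifies, had a median of 0.04, beside 0.23 for the V-ATPase. No gene of these lists passed the adjusted test in any comparison.

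Cell type markers differed between the groups as follows. In TNBS minus vector 5 of 5 neutrophil markers were above 0, with sums of 2.28 to 236 CPM in TNBS and 0.393 to 2.16 CPM in vector, and the highest TNBS sum was that of TNBS 5. IBC libraries had sums of 2.12 to 51.5 CPM for these markers. Of the smooth muscle markers 8 of 8 were below 0 (median -0.61), and of the epithelial markers 8 of 14 were above 0 (median 0.04), with sums of 15622 to 42492 CPM in IBC, 20853 to 33803 CPM in TNBS and 20651 to 41487 CPM in vector. In IBC minus TNBS the medians were 0.35 for smooth muscle, -0.03 for epithelial and -0.89 for neutrophil markers. In IBC minus vector 5 of 5 neutrophil markers were above 0 (median 4.29), 8 of 8 smooth muscle markers below 0 (median -0.49) and 6 of 14 epithelial markers above 0 (median -0.08). Of the macrophage markers 6 of 6 were above 0 in IBC minus vector (median 0.84) and 5 of 6 in TNBS minus vector (median 0.66), with sums of 145 to 447 CPM in IBC, 138 to 449 CPM in TNBS and 84.4 to 211 CPM in vector. Of the red blood cell markers 5 of 5 were below 0 in both comparisons (medians -1.56 and -1.37), with sums of 19.4 to 197 CPM in IBC, 57.2 to 171 CPM in TNBS and 129.6 to 277 CPM in vector. No marker of these lists passed the adjusted test. Fewer cells of a type and less RNA per cell cannot be told apart in whole tissue, and the part of cell composition in the members' values was not tested.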

How the data were processed

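The submitters' processing notes name cutadapt 1.9, and the labels' protocols name oligo(dT) selection of polyadenylated RNA. Not given in the sources used here are aligner, counter, annotation and build. Gene positions are the table's own, with no build named. The authors deposited, per the file headers, a count and an FPKM value for each of 35405 genes and 18 libraries. The deposited counts are whole numbers, in which a fragment may be worth more than 1 count, so no upper limit is given for a count of 0. Whether counting used strand is not stated, so antisense partners may share reads.

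Counts were filtered with filterByExpr and scaled by TMM in edgeR 4.0.16 (R 4.3.3), which left 20855 genes. All 18 libraries entered 1 model with a term for each group, which was tested by the two-sided quasi-likelihood test with Benjamini-Hochberg adjustment over all genes tested at 0.05. Levels are CPM of the scaled totals, centred values are log2 CPM with a prior count of 2, and differences are log2 with their standard error. Totals of 55669263 to 78874868 counts set the counting error, and the standard errors also cover the spread between libraries.

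Alternatives were DESeq2 1.42.0, limma 3.58.1 on log2(FPKM + 0.1) and log2(FPKM + 1), other scalings and filters, counts divided by 4, a replicate block, the Hoxb13 sets, leaving out each library, and a length offset and a fit without TNBS 5 and vector 3 added after the data were seen. Same-numbered libraries of different groups correlated above 0.1 in 7 of 18 pairs. No label states a pairing, so they were treated as unpaired, though a pairing is not excluded. The gene test was run on simulated counts with known changes, drawn gene by gene without shifts shared across a library. That run cannot tell how the test behaves under the shared shifts seen here. The members, the gene lists and the rule for named genes were chosen with earlier results of these data known. The rule names 22 genes whatever their result. It also names the members with the smallest p, the highest level, and the largest or smallest spread. Members with the largest differences between the Hoxb13 sets, in each direction, are named too. Protein sequences were not analysed here. The results of 1 member that the rule names are not reported here.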

Additional observations from a re-analysis of the deposited data

Results flagged for a closer look

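Among 132 sets of 6 libraries checked for a single value far from the others, 9 were set apart. A rate of 1 in 20 would give about 6.6. Many of the genes checked were chosen by their p or spread in these same data and move together between libraries. That rate is therefore no measure of chance here. TNBS 5 lay far above the other TNBS libraries for 4 members. It had 1002 CPM of Cox8a, against 264 to 393 CPM in the others, 414 CPM of Atp5pf, against 117 to 171 CPM, 379 CPM of Ndufa6, against 82.8 to 134 CPM, and 299.7 CPM of Atp6v0e, against 76.7 to 127 CPM. TNBS 5 also had the highest median of short transcripts of other genes.

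Vector 3 lay far above the other vector libraries for Cox6a1, with 685 CPM, against 393 to 477 CPM, and for Uqcrq, with 177 CPM, against 118 to 131 CPM. It also had the highest share of mitochondrially encoded counts, 17.98%, against 5.55% to 7.08%, and the highest median of the 13 mitochondrially encoded mRNAs, 1.70 on the centred log2 scale, against -0.18 to 0.18. IBC 2 had a mitochondrially encoded share of 7.51%, against 4.48% to 5.31% in the other IBC libraries.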

How the results depend on the processing

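No member was called in any of the 3 comparisons under any alternative run, DESeq2, limma and each left-out library included, so the lowest and highest number of called members was 0 throughout. The calls over all genes under these alternatives are not given here, so the counts of 0 say nothing about the members in particular. Leaving out each library in turn, the median difference of the members ran from 0.09 (without TNBS 5) to 0.40 (without TNBS 1) for TNBS against vector, from -0.42 (without IBC 5) to -0.01 (without TNBS 5) for IBC against TNBS, and from -0.09 (without IBC 5) to 0.16 (without IBC 6) for IBC against vector. A fit of only the 6 libraries low in Hoxb13 moved the median of IBC against TNBS to 0.21 and that of IBC against vector to 0.51. In the same fit 7 differences of single genes changed sign: Ndufa4l2 was -0.49 in TNBS against vector and -0.091 in IBC against vector, and in IBC against TNBS Ndufa12 was 0.061, Ndufa6 0.21, Atp5pf 0.20, Ndufb11 0.14 and Cox7a2 0.14. Atp6v1h in IBC against vector was -0.019 in the 12 libraries high in Hoxb13. The cause was not tested. With the replicate number as a block the medians were 0.18, -0.23 and -0.03 in the order of comparisons above, and no call changed. The median correlation of same-numbered libraries was -0.0208, and between IBC and TNBS the correlations ran from -0.34 to 0.49. No label states a pairing by number, and these correlations cannot tell whether there was one. Without TNBS 5 and vector 3 together the medians were 0.11, -0.00 and 0.10, and with limma on log2(FPKM + 1) 0.19, -0.11 and 0.08. The number of libraries and their spread limit the differences that could be called.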
